A study of Setaria viridis with 9 samples.

Results

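PnsB1 to PnsB5 are nuclear-encoded proteins that make up subcomplex B of the NADH dehydrogenase-like (NDH) complex of chloroplasts. They were represented by 6 genes of the 17987 in the deposited table, chosen as every row whose description names a photosynthetic NDH subunit of subcomplex B. PnsB1 (Entrez 117860448, SEVIR_6G113600v2), PnsB2 (Entrez 117838176, SEVIR_9G538500v2), PnsB4 (Entrez 117841699, SEVIR_1G324100v2) and PnsB5 (Entrez 117856781, SEVIR_5G445500v2) had 1 gene each. PnsB3 had 2 genes, called here PnsB3a (Entrez 117846384, SEVIR_2G329200v2) and PnsB3b (Entrez 117847494, SEVIR_3G156100v2). All 6 passed the filter on low counts, through levels that were well above it in all 9 libraries, with a lowest count of 819.

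The NDH complex sits in the thylakoid membrane, accepts electrons from ferredoxin and passes them to plastoquinone while it pumps protons, and so returns electrons from photosystem I to the electron transport chain. It is built from a membrane arm, an arm in the stroma that holds NdhO, lumenal subunits (PnsL) and subcomplex B, which flanks the membrane arm and has no counterpart in the cyanobacterial enzyme. In Arabidopsis, loss of PnsB subunits removes NDH activity, and the complex is held to photosystem I by the minor antenna proteins Lhca5 and Lhca6. In C4 grasses that use NADP-malic enzyme, NDH is known to be more abundant in the bundle sheath than in the mesophyll.

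Polyadenylated RNA came from leaf discs of Setaria viridis cultivar ME034V-1, a small C4 grass. By their labels the 9 libraries belong to 3 genotypes, with 3 libraries from each. These are wild type (WT), plants edited to carry null NdhO alleles (ndhO) and plants edited to carry null PGR5 alleles (pgr5), PGR5 being a thylakoid protein of another cyclic electron flow route. All were 3 to 4 weeks old, grown with 16 h of light a day at 380 µmol per square metre per second, at 28°C by day and 22°C by night, and the youngest fully expanded leaves were taken. The sources used here do not give how many independent edited lines stand behind a label. Libraries are named by label and replicate number.

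Library totals ran from 11606570 to 18837265 counts. Neither edited gene had a transcript level that followed the labels. NdhO (LOC117858157) stood at 44.3 CPM (counts scaled to a common library size, with TMM factors) in WT 1, 20.5 in pgr5 2 and 48.4 in pgr5 3, and at 230.0 CPM or more in the other 6, ndhO libraries included. PGR5 (LOC117861247) stood at 46.5 CPM in WT 2, 42.8 in WT 3 and 38.1 in ndhO 1, and at 249.8 CPM or more in the other 6. Genotype names below therefore mean libraries that carry that label, and directions are between labels.

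PnsB1 and PnsB2, subunits of the stroma-exposed part of subcomplex B, were the members that varied most between leaves. PnsB1 stood at 160.1, 179 and 67.0 CPM in WT 1, 2 and 3. It stood at 93.8, 148 and 160.1 CPM in ndhO 1, 2 and 3, and at 175, 91.9 and 207 CPM in pgr5 1, 2 and 3. Each label thus held a library near or below 94 CPM beside libraries at 148 CPM or more, and the 3 labels overlapped. The highest level was 3.09 times the lowest, while counting error at the lowest count was 3.49%. The coefficient of variation over the 9 libraries was 33.2%, above that of 91.1% of the 3072 genes with a mean of at least 50 CPM.

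PnsB2, a subunit whose loss in Arabidopsis abolishes NDH activity, spread further in the same leaves. It stood at 258, 366 and 91.8 CPM in WT 1, 2 and 3, at 112, 223 and 226 CPM in ndhO 1, 2 and 3, and at 222, 139 and 353 CPM in pgr5 1, 2 and 3. WT 3, ndhO 1 and pgr5 2 were again the lowest, and the WT range held those of ndhO and pgr5 whole. The highest level was 3.98 times the lowest and the coefficient of variation 43.8%, above that of 95.9% of genes of at least 50 CPM, whose median was 14.9%.

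PnsB4 and PnsB5 have membrane-spanning segments, and their transcripts varied less. PnsB4 stood at 346, 365 and 223 CPM in WT 1, 2 and 3, at 291, 324 and 337 CPM in ndhO 1, 2 and 3, and at 365, 255 and 309 CPM in pgr5 1, 2 and 3. PnsB5 stood at 836, 988 and 490.0 CPM in WT 1, 2 and 3, at 745, 705 and 792 CPM in ndhO 1, 2 and 3, and at 875, 648 and 864 CPM in pgr5 1, 2 and 3. WT 3 and pgr5 2 were the lowest libraries for both genes, and no label stood clear of another. The highest level was 1.64 times the lowest for PnsB4 and 2.02 times for PnsB5, with coefficients of variation of 15.6% and 18.9%. Levels were not compared between genes, because transcript lengths were not used here.

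**Figure D1:**
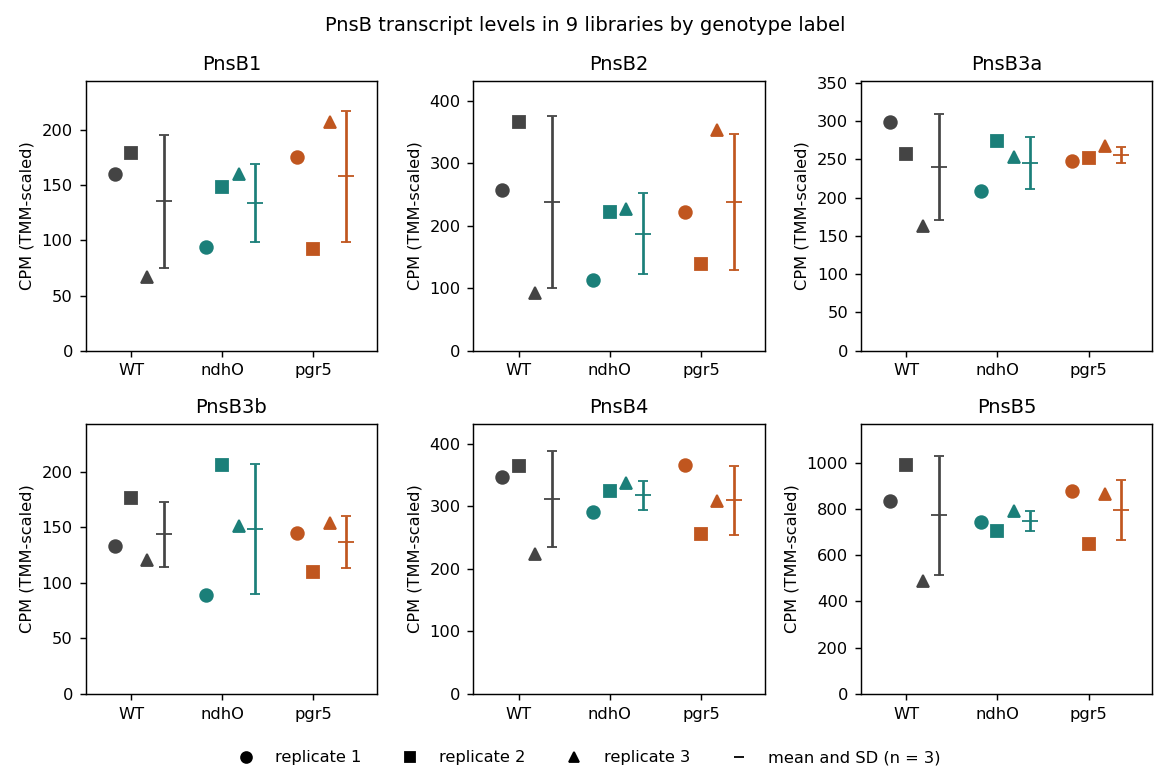
Level of each PnsB gene in CPM on TMM-scaled library sizes (vertical axis, from 0) by genotype label (horizontal axis). Points are single libraries with a symbol for each replicate number, and bars give the mean and SD of 3 libraries. WT 3 is the lowest WT library for all 6 genes, and the 3 labels overlap in every panel.

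PnsB3 carries a ferredoxin-like iron-sulfur domain and was represented by a pair of genes. PnsB3a stood at 299, 257 and 163 CPM in WT 1, 2 and 3, at 209, 274 and 253 CPM in ndhO 1, 2 and 3, and at 248, 251 and 267 CPM in pgr5 1, 2 and 3. PnsB3b stood at 133, 177 and 121 CPM in WT 1, 2 and 3, at 88.6, 206 and 151 CPM in ndhO 1, 2 and 3, and at 145, 110 and 154 CPM in pgr5 1, 2 and 3. PnsB3a had its lowest value in WT 3 and PnsB3b in ndhO 1. In pgr5 2 PnsB3a was close to its own mean (0.04 above it on the log2 scale), while PnsB3b was 0.34 below its mean. The highest level was 1.83 times the lowest for PnsB3a and 2.32 times for PnsB3b.

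The balance between both PnsB3 genes can be read within a library, where depth cancels. PnsB3a supplied 69.1% of the PnsB3 counts in WT 1 (Wilson 95% interval 68.1 to 70.1%), 59.3% in WT 2 (58.0 to 60.6%) and 57.5% in WT 3 (55.9 to 59.1%). Its share was 70.2% in ndhO 1 (68.8 to 71.5%), 57.2% in ndhO 2 (56.1 to 58.2%) and 62.6% in ndhO 3 (61.3 to 63.9%). It was 63.1% in pgr5 1 (62.0 to 64.2%), 69.6% in pgr5 2 (68.2 to 70.9%) and 63.4% in pgr5 3 (62.3 to 64.5%). Leaves of the same label therefore differed by more than counting error, which is all that these intervals cover. By label the share was 62.0 ± 6.26% for WT, 63.3 ± 6.56% for ndhO and 65.4 ± 3.63% for pgr5 (SD, n = 3). In 3 comparisons the differences were 1.35 points for ndhO against WT, 3.40 points for pgr5 against WT and 2.05 points for pgr5 against ndhO. Two-sided exact permutation p-values were 0.8, 0.5 and 0.7 (0.8 for each when adjusted over the 3, n = 3 per label), where 3 against 3 libraries cannot give less than 0.1. Leaving out WT 3 or ndhO 1 turned the first direction, and leaving out ndhO 2 or pgr5 2 turned the last. If the PnsB3 copies share sequence, the counting may have divided their reads, and the shares carry that uncertainty.

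**Figure D2:**
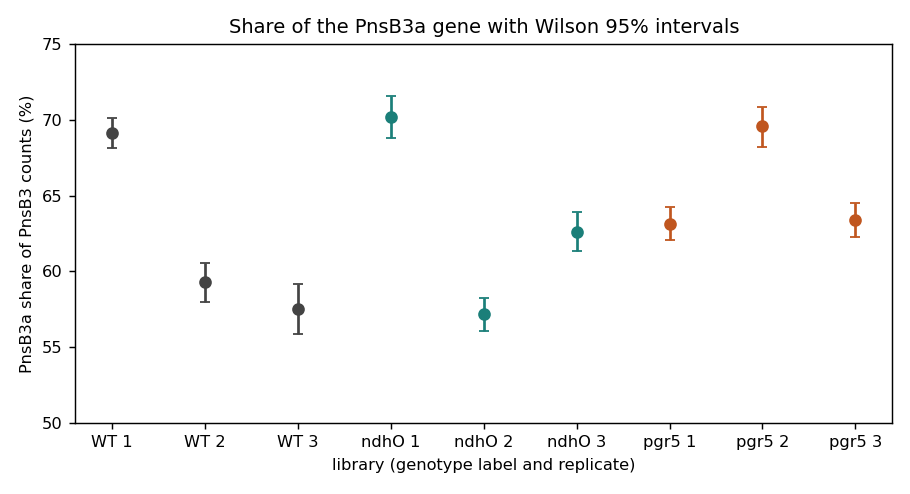
Share of PnsB3 counts that came from PnsB3a in each library (vertical axis in percent, shown from 50 to 75; horizontal axis, library), with Wilson 95% intervals that cover counting error only. WT 1, ndhO 1 and pgr5 2 sit near 70% and the other 6 libraries between 57.2 and 63.4%.

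The first comparison asked whether PnsB transcripts differed between the libraries labelled ndhO and WT. No PnsB gene passed edgeR's quasi-likelihood test at an adjusted p of 0.05 (0 of 6, where 0% of 17970 genes passed), and 0 of 6 had an unadjusted p under 0.05, against 2.74% of all genes. The largest fitted difference was that of PnsB2, at 187 ± 64.7 CPM in ndhO and 238 ± 138 CPM in WT (SD, n = 3). Its log2 fold change was -0.35 with a standard error of 0.52 (95% interval -1.52 to 0.82, edgeR adjusted p = 1.00). PnsB1 stood at 134 ± 35.4 against 135 ± 60.1 CPM, a log2 fold change of -0.02 (95% interval -0.92 to 0.89). The fitted values of PnsB3a, PnsB3b, PnsB4 and PnsB5 were 0.03, 0.05, 0.03 and -0.05, and the widest of their intervals was that of PnsB3b, from -0.58 to 0.68. The median of the 6 genes was 0.01, beside -0.0038 over all genes tested.

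Libraries labelled pgr5 were compared with WT next. Again 0 of 6 PnsB genes passed (0% of all genes) and 0 of 6 had an unadjusted p under 0.05, against 2.06% of all genes. PnsB1 had the largest fitted difference, at 158 ± 59.5 CPM in pgr5 and 135 ± 60.1 CPM in WT (SD, n = 3), a log2 fold change of 0.22 with a standard error of 0.40 (95% interval -0.69 to 1.13, edgeR adjusted p = 1.00). PnsB2 stood at 238 ± 108 against 238 ± 138 CPM. PnsB3a stood at 256 ± 10.2 against 240 ± 69.4 CPM, and for this gene the pgr5 libraries were the most even of the 3 labels. The median over the 6 genes was 0.02, beside 0.00 over all genes.

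The pgr5 and ndhO libraries were also compared directly, a contrast that shares its libraries with both comparisons above. Of the 6 genes 0 passed (0% of all genes), and 0 had an unadjusted p under 0.05, against 2.67% of all genes. PnsB2 had the widest fitted gap, a log2 fold change of 0.35 (standard error 0.52, 95% interval -0.82 to 1.52, edgeR adjusted p = 1.00), and PnsB3b one of -0.12 (95% interval -0.75 to 0.51). The median over the 6 genes was 0.07, beside 0.01 over all genes. In each of the 3 contrasts the libraries of both labels overlapped for all 6 PnsB genes. Over all genes, 8.63%, 6.32% and 8.25% had labels that did not overlap, in the order of the comparisons above. At such shares 0 of 6 does not set the PnsB genes apart from other genes. DESeq2 and limma-voom likewise called 0 of 6 in each contrast, where limma-voom called 0 of all genes and DESeq2 16 or fewer of 17987. Intervals of this width do not exclude a change of PnsB1 or PnsB2 by 1.5-fold in either direction. Leaving out WT 3 moved the median of the 6 genes from 0.01 to -0.23 for ndhO against WT and from 0.02 to -0.19 for pgr5 against WT, and leaving out WT 2 moved it to 0.18 and 0.21.

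**Figure D3:**
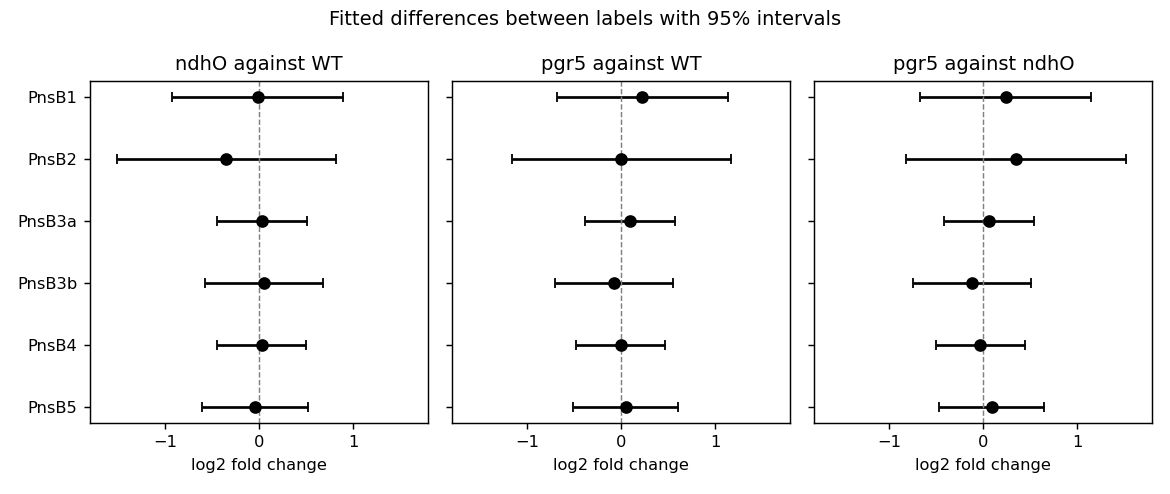
Fitted log2 fold change of each PnsB gene (horizontal axis) in 3 contrasts of genotype labels (panels), from edgeR's fit over 9 libraries. Bars are 95% intervals, and every interval spans 0, with those of PnsB2 the widest.

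For each PnsB gene, 94.7% or more of the variance of log2 CPM lay within labels. WT 3 was among the 3 lowest libraries for all 6 genes, and ndhO 1 and pgr5 2 for 5 of 6 each. WT 1, WT 2, ndhO 3 and pgr5 3 were among the 3 lowest for 0 of 6. Relative to each gene's mean over the 9 libraries, the mean of the 6 genes was -0.67 in WT 3, -0.39 in ndhO 1 and -0.31 in pgr5 2 on the log2 scale. It lay between 0.13 and 0.39 in the other 6 libraries, with the highest value in WT 2. WT 3 and pgr5 2 also had the lowest library totals, at 11606570 and 12334320 counts. WT 2 came next at 13641341, below ndhO 1 at 14015773. TMM factors were highest in WT 3, ndhO 1 and pgr5 2, at 1.053, 1.040 and 1.036, with WT 1 close behind at 1.035. A part of depth or scaling in the low levels was not tested.

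The members did not share this pattern in equal measure. In ndhO 1, PnsB1 and PnsB2 were 0.52 and 0.84 below their means on the log2 scale, and PnsB3b was 0.65 below. PnsB4 and PnsB5 were only 0.09 and 0.02 below theirs in that library. In pgr5 3, PnsB1 and PnsB2 were 0.62 and 0.81 above their means, while PnsB4 was at its mean and PnsB5 0.19 above. In WT 3 all 6 were low, from 0.20 below the mean for PnsB3b to 1.13 below for PnsB2.

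**Figure D4:**
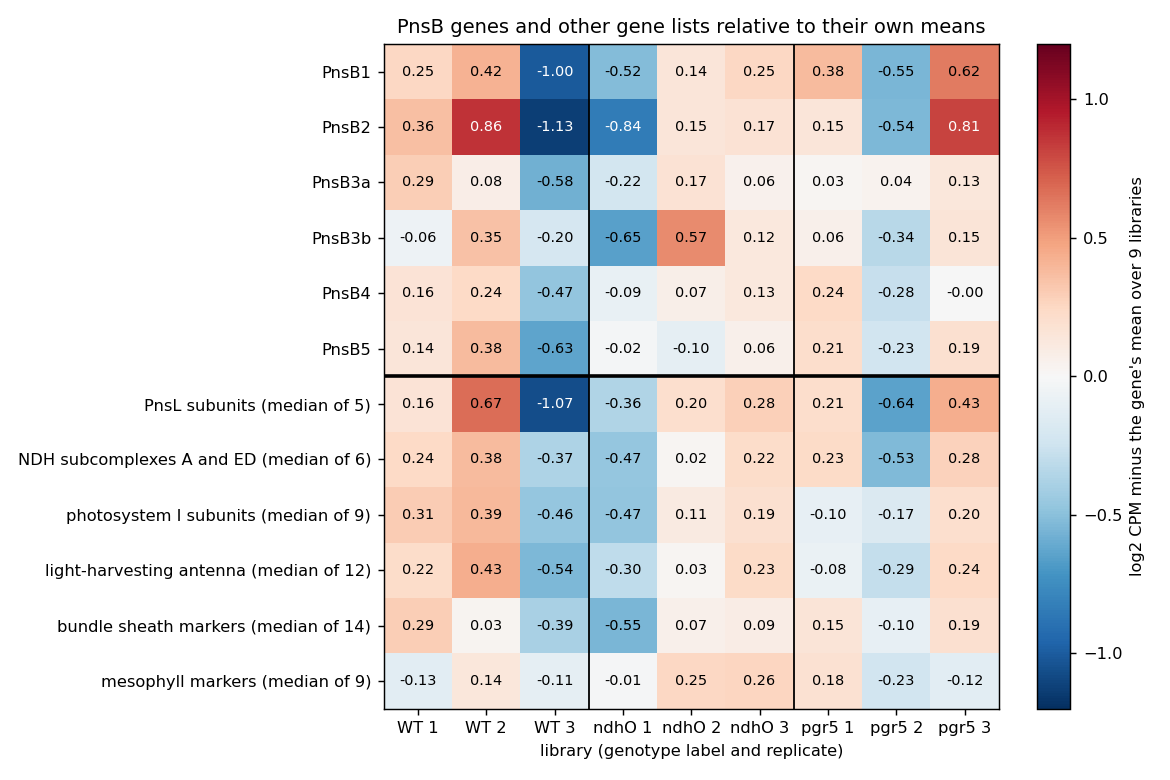
Log2 CPM minus the gene's own mean over 9 libraries for the 6 PnsB genes (upper rows) and the median of the same quantity over other gene lists (lower rows), by library (columns). Blue is below and red above the mean. WT 3, ndhO 1 and pgr5 2 are low in most rows, and mesophyll markers vary within 0.26 of 0.

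For PnsB1 and PnsB2 the 9 libraries fell into a low set (WT 3, ndhO 1 and pgr5 2) and a set of 6 at higher levels, so correlations are also given within those 6. Over 9 libraries the 15 pairs of PnsB genes had a median Pearson r of 0.79, and 10 of 15 pairs passed an exact permutation test at an adjusted p of 0.05 by Pearson's r and 3 of 15 by Spearman's rho. Over the 6 libraries the median was -0.14, with 6 of 15 pairs above 0. The 6 were chosen by the levels of PnsB1 and PnsB2, which narrows the range of those genes, so their values are a description. Leaving out any single library kept the median between 0.66 and 0.84. Within the 6 libraries r was 0.76 for PnsB1 with PnsB2, 0.71 for PnsB2 with PnsB5 and 0.66 for PnsB1 with PnsB5, the highest of the 15. Exact permutation p-values for these r were 0.0861, 0.115 and 0.149 (adjusted 0.743 each), and 0 of 15 pairs passed at an adjusted p of 0.05. These p-values cannot decide whether the genes vary together there, since the 6 libraries are few and were chosen by PnsB1 and PnsB2 levels. Spearman's rho was 0.60, 0.43 and 0.83 for the same pairs.

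For the other 4 genes these libraries were either not the 3 lowest (PnsB3a and PnsB5) or not set apart by a gap (PnsB3b and PnsB4). Over 9 libraries PnsB4 and PnsB5 had an r of 0.91 (exact permutation p = 9.04e-04, adjusted 0.00676) and a rho of 0.85 (exact permutation p = 0.00607, adjusted 0.0304). Without WT 3 and pgr5 2, the libraries farthest from the PnsB4 median, r was 0.64. PnsB3a and PnsB3b had an r of 0.51 (exact permutation p = 0.166, adjusted 0.178) and a rho of 0.63 (exact permutation p = 0.0760, adjusted 0.127), and r was 0.14 without WT 3 and ndhO 1. The lowest r of any pair was that of PnsB3b with PnsB5, at 0.39 (exact permutation p = 0.304, adjusted 0.304), with a rho of 0.47 (exact permutation p = 0.213, adjusted 0.245). Without ndhO 1 and ndhO 2 that r was 0.80. With the label means subtracted the median r over 9 libraries was again 0.79.

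**Figure D5:**
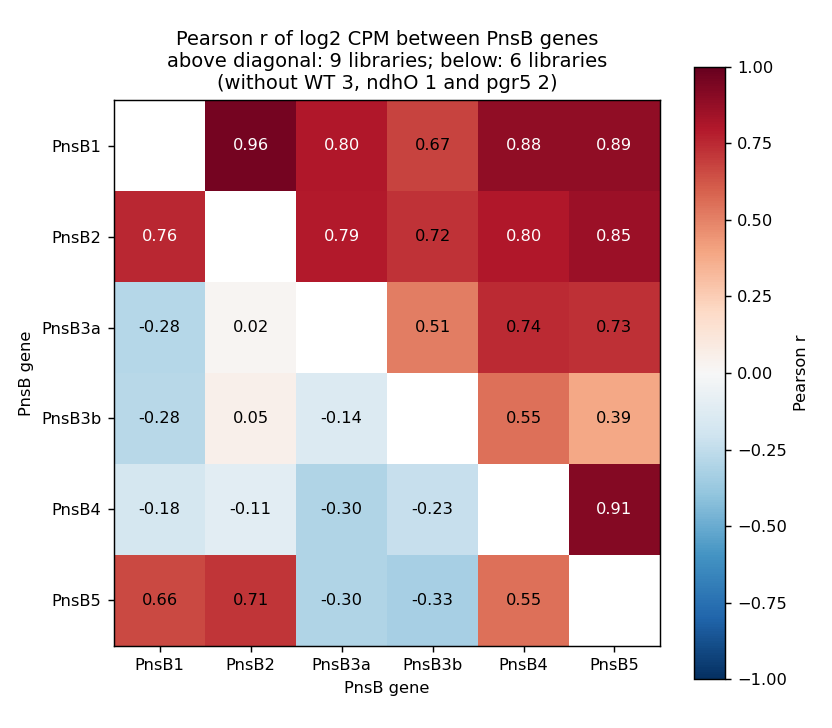
Pearson r of log2 CPM between pairs of PnsB genes (both axes), over 9 libraries above the diagonal and over the 6 libraries other than WT 3, ndhO 1 and pgr5 2 below it. All 15 values are above 0.38 over 9 libraries, and over 6 libraries the pairs among PnsB1, PnsB2 and PnsB5 remain above 0.65 while most others are near or below 0.

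The genes whose pattern over the 9 libraries was most like the mean PnsB profile were sought among 16483 other genes with a mean of at least 1 CPM, by Pearson r. This profile averages log2 values that were centred but not scaled. PnsB1 and PnsB2 therefore weigh most in it, with coefficients of variation of 33.2% and 43.8%, beside 15.6% to 24.6% for the other members. The highest was LOC117833370, described as MAD1-like, with an r of 0.99, followed by the uncharacterized LOC117854175 (0.99) and LOC117837475 (0.99). A psbP domain-containing protein 1 gene (LOC117848705), whose Arabidopsis counterpart assists photosystem I assembly, ranked 4 at 0.98. Lhca5 (LOC117839256), described as photosystem I chlorophyll a/b-binding protein 5, ranked 5 at 0.98. Lhca6 (LOC117844986), which was named after its value was seen, ranked 6 with an r of 0.98. These ranks are a description of 9 libraries that share the same 3 low leaves.

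Lhca5 stood at 360.4, 434 and 188 CPM in WT 1, 2 and 3, at 231, 403 and 373 CPM in ndhO 1, 2 and 3, and at 376, 272 and 469 CPM in pgr5 1, 2 and 3. Lhca6 stood at 160.0, 218 and 52.7 CPM in WT 1, 2 and 3, at 75.9, 123 and 139 CPM in ndhO 1, 2 and 3, and at 137, 72.7 and 189 CPM in pgr5 1, 2 and 3. WT 3, ndhO 1 and pgr5 2 were the lowest libraries for both. With each library left out in turn, Lhca5 ranked between 4 and 14 and Lhca6 between 4 and 12. Over the 6 libraries without the low set, r with the mean PnsB profile was 0.79 for Lhca5 (rank 631) and 0.94 for Lhca6 (rank 58).

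Taken singly, PnsB1 was most like a mitochondrial-like heat shock 70 kDa protein gene (LOC117844678, r of 0.99) and PnsB2 most like LOC117833370 (0.99). PnsB3a was most like protein phosphatase 2C 75 (LOC117833247, 0.97) and PnsB3b most like the nuclear transport GTPase gene Ran-2 (LOC117848190, 0.96). PnsB4 was most like the uncharacterized LOC117843560 (0.98) and PnsB5 most like a putative methyltransferase (LOC117857639, 0.97). The genes nearest to PnsB3a, PnsB4 and PnsB5 had means of only 1.70, 1.68 and 1.09 CPM, close to the cut-off of 1 CPM. Each nearest gene is the highest of 16488 values, so these matches are a description. No member had another member as its nearest gene. The closest came for PnsB4, among whose 16488 other genes PnsB5 ranked 20, and for PnsB1 and PnsB2, each of which ranked 34 for the other. PnsB3b was the most distant, with PnsB2 at rank 649 as the nearest member.

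The other NDH genes were read in the same fit. There 0% of all genes were called, and 2.74%, 2.06% and 2.67% had an unadjusted p under 0.05, in the order of the contrasts above. At such shares the counts below do not set these lists apart from other genes. Lumenal PnsL subunits had 0 of 5 genes called by edgeR in each contrast, with 0 at an unadjusted p under 0.05, and their median log2 fold changes were 0.08 for ndhO against WT, -0.00 for pgr5 against WT and 0.01 for pgr5 against ndhO. PnsL1 (LOC117839006) had the lowest p of these, with a log2 fold change of -0.19 and a standard error of 0.26 for ndhO against WT. Subunits of the membrane and stromal arms (NdhL, M, O, S, T and U) had 0 of 6 called and 0 at an unadjusted p under 0.05, with medians of -0.11, -0.09 and 0.09. NdhU (LOC117848688) had the lowest p there, with a log2 fold change of -0.44 and a standard error of 0.34 for ndhO against WT. Assembly factors had 0 of 5 called, with medians of -0.16, -0.05 and 0.10. CRR7 (LOC117857645), an assembly factor of the stromal arm, had an unadjusted p of 0.0490 for pgr5 against ndhO (adjusted p = 1.00, edgeR), and 0 of the other 4 had one under 0.05 in any contrast. Photosystem I subunits had 0 of 9 called, with medians of -0.13, -0.13 and 0.01, and light-harvesting antenna genes 0 of 12, with medians of -0.12, -0.12 and -0.01. For both lists 0 genes had an unadjusted p under 0.05.

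PnsL genes varied across leaves much as the mean PnsB profile did, in which PnsB1 and PnsB2 weigh most. Their r with the mean of the 6 PnsB genes ran from 0.91 to 0.97 over 9 libraries, and 5 of 5 ranked among the 500 most alike genes, a set that holds 3.03% of all genes. So did 4 of 6 membrane and stromal arm subunits, 2 of 5 assembly factors, 8 of 9 photosystem I subunits and 7 of 12 antenna genes. NdhT (LOC117833231) had an r of -0.38, and NdhO one of 0.17. Over the 6 libraries without the low set the median r was 0.70 for PnsL genes, 0.10 for the membrane and stromal arms, 0.70 for assembly factors, 0.52 for photosystem I subunits and 0.59 for antenna genes, beside -0.00 for all genes. These lists were compared with the PnsB genes as descriptions, and no difference between lists was tested.

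PnsB levels were also set beside the transcripts of the edited genes, library by library. In pgr5 3, with NdhO at 48.4 CPM, PnsB1 was at its highest of 9 libraries, and in WT 1, with NdhO at 44.3 CPM, PnsB3a was at its highest. In pgr5 2, with NdhO at 20.5 CPM, 5 of the 6 genes were below their means. In WT 3 and ndhO 1, both low in PnsB genes, NdhO stood at 230.0 and 245 CPM. PGR5 stood at 42.8 and 38.1 CPM in those same libraries, at 46.5 CPM in WT 2, where the mean PnsB level was highest, and at 249.8 CPM in pgr5 2, where it was low. In ndhO 2, ndhO 3 and pgr5 1 neither edited gene was low. Relative to each gene's mean, the 6 genes there averaged 0.16, 0.13 and 0.18 on the log2 scale. WT 3, ndhO 1 and pgr5 2, all low in PnsB genes, were each low in NdhO or PGR5. So were WT 1, WT 2 and pgr5 3, where the same average was 0.19, 0.39 and 0.32. A link between PnsB levels and the edited transcripts was not tested.

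Markers of other cells were read beside these values, since in whole leaf a smaller share of a cell type and less RNA per cell cannot be told apart. The 14 bundle sheath marker genes summed to 16130 CPM in WT 3 and 15810 in ndhO 1, and to between 21145 and 26851 CPM in the other 7 libraries. By label their sum ran from 16130 to 26797 CPM in WT, 15810 to 21550 in ndhO and 22315 to 26851 in pgr5. In WT 3 and in ndhO 1, 11 of 14 were below their own means, and in pgr5 2, where the sum was 22315 CPM, 9 of 14. Members with high levels went different ways in pgr5 2. There the NADP-malic enzyme gene LOC117857444 (12442 CPM) was 0.16 above its mean on the log2 scale, and the rubisco small chain gene LOC117850422 (3572 CPM) 0.09 below. The small chain genes LOC117850448, LOC117850089 and LOC117850525 were 0.13, 0.26 and 0.28 below, and the phosphoribulokinase gene LOC117834135 0.18 below. LOC117857444 alone gave 9342 CPM of the sum in WT 3 and 9077 in ndhO 1. The counts weigh it alike with LOC117866674 (0.55 to 3.68 CPM). Neither this sum nor these counts are thus a measure of bundle sheath share. The 9 mesophyll markers summed to 70909 to 84905 CPM in WT, 67612 to 95326 in ndhO and 64643 to 85822 in pgr5. Of the mesophyll markers, 5 of 9 were below their means in WT 3, 5 of 9 in ndhO 1 and 6 of 9 in pgr5 2, while 9 of 9 were below in WT 1 and 8 of 9 in pgr5 3, both high in PnsB genes. These counts weigh alike LOC117850669 (31140 to 49093 CPM), LOC117854270 (19394 to 35992 CPM) and a phosphoenolpyruvate carboxylase described as the housekeeping isozyme (LOC117858341, 1.17 to 17.8 CPM). Neither the sum nor the counts are thus a measure of mesophyll share. No gene of either list was at 0 in any library. The 35 genes listed for dividing cells summed to 1265 to 1423 CPM and the 23 for lignifying vascular tissue to 580 to 718 CPM over all libraries, with 3 and 5 genes at 0 in some library. The former list holds H3.3 and H1 histones, which are not particular to dividing cells. The H3.3 gene LOC117840464 alone gave 326 to 405 CPM, while proliferating cell nuclear antigen (LOC117841457) stood at 6.61 to 15.1 CPM. That sum is therefore not a reading of dividing cells alone. In all 3 contrasts edgeR called 0 genes of each of the 4 marker lists, and 2 or fewer genes per list had an unadjusted p under 0.05. Over all genes the shares were 0% called and 2.06% to 2.74% at that unadjusted p. The part of these cell types in the PnsB levels was not tested.

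The authors' deposited table called 0 of the 6 genes for ndhO against WT (0% of all genes at an adjusted p under 0.05) and 0 of 6 for pgr5 against WT (2.51%). For pgr5 against WT the authors' deposited table gave log2 fold changes of -0.41 for PnsB2 (adjusted p = 0.697) and -0.18 for PnsB1 (adjusted p = 0.841), where the fit to the counts gave -0.0014 and 0.22. The PnsB1 value thus had the opposite sign, and so had PnsB5, at -0.04 in the authors' deposited table and 0.04 from the counts. The authors' deposited table also holds corrected log2 CPM, and the sources used here do not give what was corrected. For PnsB2 these values lay 0.26 above the log2 CPM in WT 1, 2 and 3 and ndhO 1 and 2, and 0.26 below it in ndhO 3 and pgr5 1, 2 and 3. For PnsB1 the same shift was 0.22 in each direction, and for PnsB3a 0.04. After correction ndhO 3 lay, for all 6 genes, at the average of ndhO 1 and ndhO 2 (largest gap 5e-10). Before it, ndhO 3 lay 0.52 above that average for PnsB2 and 0.44 above it for PnsB1, so the shifts match the distance of this 1 library. For pgr5 against WT, every pgr5 library was shifted down and every WT library up. In that contrast the deposited log2 fold changes lay below those from the counts for all 6 genes. The gap ran from 0.03 for PnsB3a to 0.40 for PnsB1 and 0.41 for PnsB2. For ndhO against WT, where ndhO 3 was shifted down and the other 5 libraries up, the authors' deposited table gave -0.37 for PnsB2 and -0.07 for PnsB1, against -0.35 and -0.02 from the counts. PnsB3b had opposite signs in that contrast, at -0.07 in the authors' deposited table and 0.05 from the counts.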

How the data were processed

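Per the labels' protocols, leaf polyadenylated RNA was made into strand-specific libraries and read from both ends. Limma 3.62.2, edgeR 4.4.1, StringTie 2.2.3, Trim Galore 0.6.7 and FastQC 0.11.9 are named in the submitters' processing notes. Aligner and build: not given in the sources used here. Whole-number counts for each gene, as the authors deposited them, were used unchanged. Per the file headers the table also holds corrected log2 CPM and log2 fold changes, with t and B statistics (treated as a score) and p-values and adjusted p-values of the authors. Columns of ndhO and pgr5 were assigned by genotype and final digit.

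The main test was edgeR 4.0.16 under R 4.3.3: TMM scaling, default filter (17970 genes kept), robust quasi-likelihood fits over 9 libraries with the label as the only term, and Benjamini-Hochberg adjustment over all genes. The p-values of this test set differences between labels against the spread between libraries of the same label, labels that the NdhO and PGR5 transcripts did not follow. Log2 CPM used a prior count of 2. Correlations used exact permutation in Python 3.11.15. DESeq2 1.42.0 and limma 3.58.1 (voom) were alternatives.

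The members and lists were chosen with earlier results of these data known, and the patterns of the photosystem I, assembly factor and histone lists were amended after the descriptions were read. Named genes were the 6 members, the edited genes, the lowest p of each other NDH list, the 5 genes most like the mean profile and the gene most like each member. Lhca6 and NdhT fall outside this rule and were named after their values were seen. RefSeq entries of GCF_005286985.2 matched 6 of 6 members. There PnsB1 overlaps LOC117860447 by 21 bases, a gene at 23.8 to 30.9 CPM. Its reads could be counted with PnsB1, since the sources used here do not say whether counting used strand. Sequences and transcript lengths were not used here.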

Additional observations from a re-analysis of the deposited data

How the results depend on the processing

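No PnsB gene was called in any contrast under any scaling, filter, test, threshold or left-out library tried (lowest adjusted p 0.990 over 324 fits). The medians of the 6 genes moved by less than 0.42, the SD of the mean PnsB profile between libraries of a label. That yardstick is wide, since medians changed sign within it. Without WT 3 they went from 0.01 to -0.23 for ndhO against WT and from 0.02 to -0.19 for pgr5 against WT. Over all genes DESeq2 called 16 genes for ndhO against WT, 6 for pgr5 against WT and, between pgr5 and ndhO, 12, where edgeR called 0 (493, 371 and 480 at an unadjusted p under 0.05). Fitted values near 0 changed sign. For ndhO against WT, total counts gave -0.015 for PnsB3a, -0.0069 for PnsB3b and -0.014 for PnsB4, and limma-voom gave 0.075 for PnsB1, -0.019 for PnsB3b and 0.021 for PnsB5. For pgr5 against WT, PnsB2 became 0.0046 with upper-quartile scaling, 0.017 with total counts, 0.11 with limma-voom, 0.0011 with only the 2 labels and 0.018 with the replicate block. PnsB4 became 0.0031, 0.010 and 0.0027 with upper-quartile scaling, limma-voom and the replicate block. For pgr5 against ndhO, total counts gave 0.011 for PnsB4.

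Leaving out each library gave, for ndhO against WT, ranges of -0.34 to 0.25 (PnsB1), -0.74 to 0.11 (PnsB2), -0.18 to 0.22 (PnsB3a), -0.26 to 0.31 (PnsB3b), -0.16 to 0.17 (PnsB4) and -0.29 to 0.19 (PnsB5). For pgr5 against WT they were -0.10 to 0.50, -0.40 to 0.46, -0.12 to 0.28, -0.18 to 0.11, -0.20 to 0.13 and -0.20 to 0.27. For pgr5 against ndhO they were -0.0032 to 0.51, -0.051 to 0.62, -0.046 to 0.14, -0.39 to 0.18 and -0.18 to 0.087 for PnsB1 to PnsB4, and PnsB5 kept its sign. The PnsB3a share differed by -2.09 to 4.93 points for ndhO against WT, 1.16 to 6.98 for pgr5 against WT and -1.04 to 5.49 for pgr5 against ndhO. The median pairwise r ran from 0.66 to 0.84, was 0.71 with total counts, and was -0.14 in the 6 libraries without WT 3, ndhO 1 and pgr5 2, an alternative chosen after seeing the data. Why signs and correlations changed was not tested, beyond the smaller number of libraries.

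Same-numbered libraries did not deviate together across genes (correlations from -0.38 to 0.06), so the numbers were not read as pairs, and the replicate block called 0 PnsB genes and 0 genes in each contrast. At 819 counts or more, counting error was small beside the spread between leaves, and 3 libraries per label limit what can be told apart.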
